A study of Solanum lycopersicum with 27 samples.

Results

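Wild-type tomato fruit (Solanum lycopersicum, cultivar Ailsa Craig, WT) was compared between the breaker stage, 34 days post anthesis (dpa), and 25 dpa. The 6 libraries were those whose titles and columns name this cultivar at these ages, 3 at each age, out of 27 libraries in 9 groups. The labels give wild type as genotype, fruits as tissue and no treatment for both ages. The other groups came from the same cultivar and serve below only as a comparison for the transcripts that appeared or vanished: dml2-3 and the double mutant rin/tdr4-1 at 25 and 34 dpa, and rin-1, tdr4-1 and nor-1 at 34 dpa. Replicates are not stated to come from separate plants, so p-values measure the spread between these libraries, which may be technical.

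Tomato is a climacteric fruit: at the breaker stage ethylene production rises, chlorophyll begins to be lost, carotenoids build up and cell walls start to loosen. RIN and TDR4, both of the MADS-box family, and the NAC factor NOR are transcription factors needed for normal ripening, and DML2 removes methyl groups from DNA at ripening genes. The comparison asks which transcripts of normal fruit differ between these ages, and age and ripeness cannot be told apart in it. In the deposited table a gene is known by its Solyc identifier alone, and none of 34075 identifiers was found in the reference table used here, so no name, role or sequence is given for any of them. Defining markers of fruit tissues could therefore not be checked. In such an identifier the number after Solyc is the chromosome (00 for sequence not placed on one) and the last number follows the order of genes along it.

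Libraries of the same age were close to each other and the ages stood apart. Pearson's r of log2 values across genes ran from 0.992 to 0.994 within an age and from 0.903 to 0.908 between ages. Among genes with a mean of at least 10 FPKM (fragments scaled by gene length and library total), the median coefficient of variation over 3 replicates was 8.04% at 25 dpa and 9.26% at 34 dpa. Summed FPKM ran from 961250 to 1044709 per library. The depth is unknown, since read numbers cannot be had from these FPKM values. No WT library stood apart from its group.

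Breaker fruit had fewer detected genes than fruit at 25 dpa, and its most abundant transcripts held a larger share of the total. In the 25 dpa libraries 17556, 17519 and 17482 genes stood at 1 FPKM or more, and in the 34 dpa libraries 15130, 15315 and 15117 did. Every breaker library was lower than every younger one. The difference was -2332 genes (17519 ± 37 against 15187 ± 111, mean ± SD, n = 3, exact permutation p = 0.1, two-sided, the smallest that 20 assignments of 6 libraries allow). Genes at 100 FPKM or more numbered 1732 ± 25.9 and 1398 ± 24.8, while those at 1000 FPKM or more numbered 68.3 ± 5.03 and 89.7 ± 1.53, the opposite direction (exact p = 0.1 for each).

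The 100 most abundant genes of each library held 23.5%, 25.98% and 26.4% of summed FPKM at 25 dpa and 44.4%, 40.8% and 42.8% at 34 dpa. The stages did not overlap, and the means of 25.3% ± 1.55 and 42.7% ± 1.79 (SD, n = 3) gave an exact permutation p of 0.1, the smallest possible. For the 10 most abundant genes the share was 12.7% ± 1.31 at 25 dpa and 21.7% ± 1.49 at 34 dpa (SD, n = 3, exact p = 0.1). In bulk fruit, fewer cells of a type and less RNA per cell cannot be told apart. Because FPKM is relative to the total, a larger share for some genes lowers the reading of all others.

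**Figure D1:**
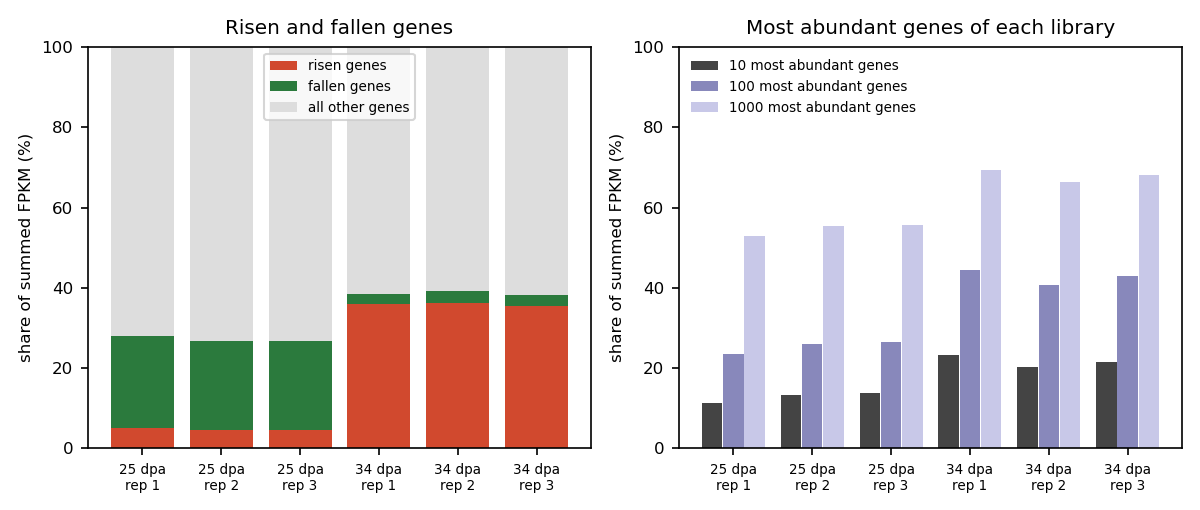
Make-up of the 6 wild-type libraries, with the share of summed FPKM (%) on the vertical axis and 1 bar or group of bars for each library. On the left, genes that rose by 2-fold or more take 4.75% of summed FPKM on average at 25 dpa and 35.9% at 34 dpa; on the right, the 10, 100 and 1000 most abundant genes of each library take a larger share in every 34 dpa library than in any 25 dpa library.

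Most genes differed between the ages, and the balance of directions depended on the scaling. The test covered 17358 genes that reached 1 FPKM in 3 or more of the 6 libraries, and limma called 13138 of them at an adjusted p under 0.05, or 75.7%. As deposited, 2591 genes (14.9%) were higher and 10547 (60.8%) lower at 34 dpa. Divided by size factors, which centre the median gene, 6335 were higher and 6542 lower. The median gene moved by -0.54 on the log2(FPKM + 1) scale as deposited and by -0.0028 with size factors. Genes were therefore counted as risen or fallen here only where the call and a change of 2-fold or more held on both scales.

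By that measure 1015 genes rose, or 5.85% of those tested, and 3635 fell, or 20.9%. The median log2 change was 1.70 for risen and -2.19 for fallen genes. Falls outnumbered rises at 4-fold, with 1444 against 404 genes, and at 16-fold, with 196 against 119. At 64-fold the order turned, with 35 risen and 17 fallen genes. On the log2(FPKM + 1) scale the change of genes near 1 FPKM is understated. Of all tested genes, 2763 (15.9%) had every 34 dpa library above every 25 dpa library and 10691 (61.6%) had the opposite order; this held for 1013 of the risen and 3634 of the fallen genes.

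The share of genes that rose grew with their level, and the share that fell was highest among weak transcripts. Among 83 genes with a mean over the 6 libraries of 1000 FPKM or more, 40 rose (48.2%) and 10 fell (12%). Among 1598 genes at 100 to 1000 FPKM, 252 rose (15.8%) and 255 fell (16%). Among 6231 genes at 1 to 10 FPKM, 200 rose (3.21%) and 1901 fell (30.5%). The mean includes both ages, so that a gene with a steep rise enters a higher class through its 34 dpa value. Together the risen genes went from 4.75% ± 0.237 to 35.9% ± 0.390 of summed FPKM, and the fallen genes from 22.4% ± 0.563 to 2.76% ± 0.155 (SD, n = 3; the genes were chosen by this contrast, so no test was made).

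**Figure D2:**
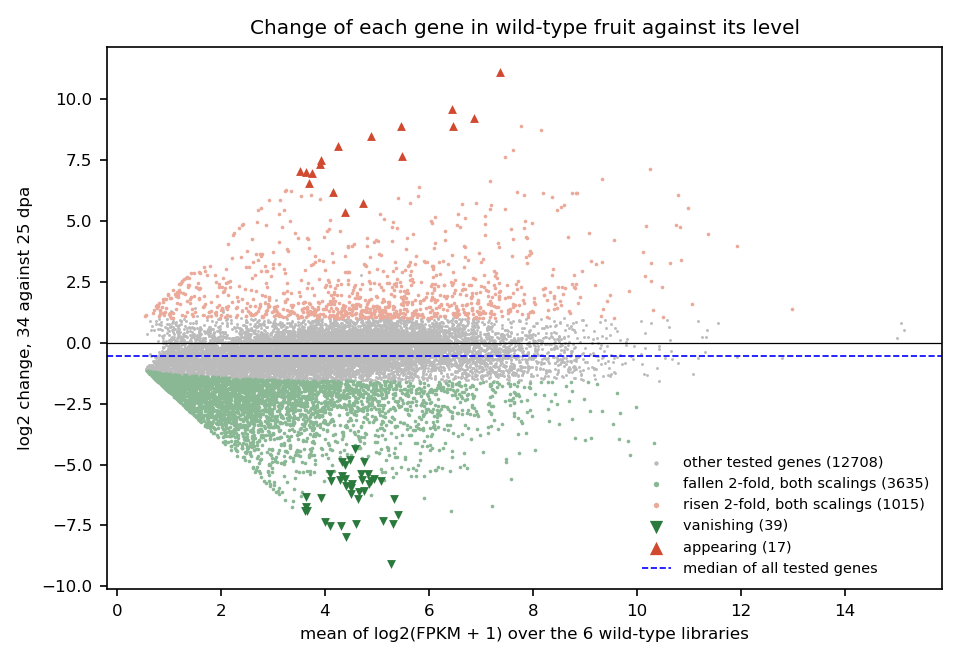
Log2 change of each tested gene, 34 against 25 dpa (vertical axis), against the mean of log2(FPKM + 1) over the 6 wild-type libraries (horizontal axis); each point is 1 gene. The dashed line marks the median change of -0.54, and the 17 appearing and 39 vanishing transcripts lie at the outer edges, with the highest point, Solyc10g080210.2, at 11.11.

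The transcripts that led the fruit at each age were partly the same. Solyc04g071610.4, Solyc07g049135.1 and Solyc10g017970.1 held the first 3 places at both ages. Solyc07g049135.1 read 25169, 30089 and 35237 FPKM at 25 dpa and 51638, 36366 and 43358 at 34 dpa. These groups did not overlap, but the log2 change of 0.54 (SE 0.24) missed the threshold (limma adjusted p = 0.0779); with size factors it was 1.14 (adjusted p = 0.0255). Solyc04g071610.4 read 22717, 33184 and 37939 FPKM at 25 dpa and 42992, 24381 and 42024 at 34 dpa. The ages overlapped, and its log2 change of 0.21 (SE 0.31, adjusted p = 0.567) turned to -0.20 with quantile scaling and to -0.0067 without replicate 1 of 25 dpa.

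Solyc10g017970.1 read 26917, 28076 and 23703 FPKM at 25 dpa and 46588, 48969 and 40084 at 34 dpa. Its libraries did not overlap, and the log2 change was 0.78 (SE 0.21, adjusted p = 0.00956), or 1.32 relative to the median gene. Leaving out replicate 3 of 25 dpa ended that call (0.71, adjusted p = 0.0649), as did quantile scaling (0.088, adjusted p = 0.764). Its neighbour in the order of identifiers, Solyc10g017980.1, went from 5064 ± 1054 to 13303 ± 2505 FPKM (SD, n = 3). Its log2 change was 1.40 (SE 0.21, adjusted p = 0.000423) as deposited and read -0.15 under quantile scaling.

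Below these leaders the list turned over. The 10 most abundant genes by mean FPKM shared 4 members between ages, and all 6 that joined at 34 dpa rose. Of the 6 that left, 3 fell. Among the 100 most abundant genes 32 were shared, 64 of the 68 that joined rose and 32 of the 68 that left fell; among the 1000 most abundant, 579 were shared. Of all tested genes 5.85% rose and 20.9% fell, and the ranks that define these lists use the same contrast.

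Of the genes that joined the first 10, Solyc02g090120.1 changed most. It read 145, 129 and 57.8 FPKM at 25 dpa and 14259, 16083 and 12625 at 34 dpa, and the lowest breaker value lay far above the highest younger one. The rise was 130-fold (log2 change 7.10, SE 0.32, adjusted p = 3.52e-07) and took the gene from rank 1578 to rank 6. Solyc09g089580.4 rose from 299 ± 23.6 to 13722 ± 725 FPKM (log2 change 5.52, SE 0.11, adjusted p = 7.81e-09; SD, n = 3). Solyc03g111720.3 rose from 357 ± 73.3 to 9617 ± 2114 FPKM (log2 change 4.75, SE 0.21, adjusted p = 3.45e-07).

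The other 3 newcomers carry nearby identifiers on chromosome 6. Solyc06g076560.2 read 203, 223 and 228 FPKM at 25 dpa and 17031, 11574 and 14970.2 at 34 dpa, a 66.7-fold rise (log2 change 6.04, SE 0.15, adjusted p = 2.29e-08). Solyc06g076520.1 rose from 983 ± 84.7 to 15565 ± 2738 FPKM (log2 change 3.97, SE 0.16) and Solyc06g076570.4 from 563 ± 19.7 to 12494 ± 1282 FPKM (4.47, SE 0.12; SD and n = 3 for each). Between them Solyc06g076540.1 rose from 0.63 ± 0.137 to 109 ± 29.9 FPKM, while Solyc06g076550.4 fell from 5.32 ± 0.568 to 0.243 ± 0.0462 FPKM. Just before this stretch Solyc06g076510.3 was lower, at 12.9 and 3.96 FPKM, but reached 2-fold on 1 scale only. These other genes of the stretch were chosen after their values were seen.

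Some transcripts that led at 25 dpa lost most of their level without vanishing. Solyc07g064160.3 read 5149, 5234 and 5711 FPKM at 25 dpa and 323, 315 and 290.3 at 34 dpa, with no overlap and a narrow spread. The fall was 17.3-fold (log2 change -4.11, SE 0.10, adjusted p = 1.62e-08), and its rank went from 5 to 372. Solyc05g054090.3 fell from 4581 ± 525 to 190 ± 35.0 FPKM (log2 change -4.60, SE 0.16) and Solyc09g075210.3 from 3674 ± 577 to 224 ± 31.1 FPKM (-4.02, SE 0.15; SD and n = 3). Solyc01g109660.2 was also lower (3444 and 1386 FPKM, log2 change -1.31, SE 0.17), short of 2-fold with size factors (-0.71). Solyc11g012320.3 (8902 and 5631 FPKM) and Solyc01g099770.3 (4828 and 3169 FPKM) were called lower as deposited but not with size factors, where their log2 changes were -0.051 and -0.0040.

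Some abundant transcripts had only low readings at the other age, and are called appearing or vanishing here. A transcript counted as appearing where every 34 dpa library read at least 100 FPKM and every 25 dpa library under 5 FPKM, and as vanishing in the mirrored case. There were 17 appearing and 39 vanishing transcripts, all of them among the genes tested and called. Their median log2 changes were 7.47 (range 5.35 to 11.11) and -5.96 (range -9.10 to -4.35), beside -0.54 over all genes tested. These values follow from the limits and carry no test of their own. A reading under 5 FPKM is not absence. On the low side the median of the means was 1.06 FPKM for appearing transcripts and 2.01 FPKM for vanishing ones. Appearing transcripts went from 0.00236% to 1.86% of summed FPKM and vanishing ones from 0.905% to 0.00756%.

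The limits divided a continuous range. The weakest breaker value among appearing transcripts was 107 FPKM (Solyc10g083400.1), and the nearest gene outside read 94.3 FPKM (Solyc02g087890.4). On the low side the highest 25 dpa value among members was 4.06 FPKM (Solyc03g117630.1), and the nearest outside was 5.42 FPKM (Solyc01g108880.4). For vanishing transcripts the corresponding pairs were 104 FPKM (Solyc03g121180.4) and 98.7 FPKM (Solyc07g008210.4) at 25 dpa, and 4.98 FPKM (Solyc08g079870.3) and 5.06 FPKM (Solyc02g087850.1) at 34 dpa.

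Solyc10g080210.2 showed the steepest rise of all tested genes on the log2 scale. It read 3.07, 2.08 and 2.43 FPKM at 25 dpa and 7546, 8421 and 7299.9 at 34 dpa, so that a barely detected transcript became the twelfth most abundant of the fruit. The fold of the means was 3069 (log2 change 11.11, SE 0.12, adjusted p = 1.27e-09), or 11.65 relative to the median gene. Solyc08g066240.3 was second on that scale, log2(FPKM + 1), with 1.88, 2.22 and 2.33 FPKM against 2311, 2701 and 2239. By fold of the means some transcripts with lower 25 dpa values rose more, such as Solyc08g066250.4 (1857-fold). The rise of Solyc08g066240.3 was 1128-fold (log2 change 9.59, SE 0.10, adjusted p = 1.27e-09), and it went from rank 16213 to rank 44.

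Solyc03g117630.1 had the tightest breaker values of the 4 strongest appearing transcripts. It read 3.70, 4.06 and 3.63 FPKM at 25 dpa and 2792, 2868 and 2862 at 34 dpa, a log2 change of 9.21 (SE 0.07, adjusted p = 6.11e-10). Solyc12g011310.2 read 3.36, 3.03 and 2.96 FPKM and then 1763, 2308 and 1729, with replicate 2 highest (8.86, SE 0.12, adjusted p = 2.57e-09). Solyc03g118060.3 read 0.48, 1.37 and 1.33 FPKM and then 1011, 879 and 978 (8.89, SE 0.18, adjusted p = 9.08e-09). In all 3 the ages lay far apart.

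The other 5 of the 10 strongest appearing transcripts ended between 196 and 637 FPKM. Solyc02g085910.4 went from 2.14 ± 0.245 to 637 ± 68.3 FPKM and Solyc02g065260.4 from 0.603 ± 0.323 to 560 ± 9.97 FPKM (SD, n = 3). Solyc08g066250.4, next to Solyc08g066240.3, went from 0.167 ± 0.102 to 309 ± 19.7 FPKM. Solyc12g088220.2 went from 2.71 ± 0.451 to 196 ± 47.6 FPKM, with replicate 2 at 250.4 and the others at 172 and 164. Solyc03g112170.1 was listed at 0 in 2 of the 25 dpa libraries and at 0.46 FPKM in the other, and reached 211, 199.9 and 192 FPKM. Solyc07g062670.1 was listed at 0 in all 3 and read 145, 113 and 139 FPKM at 34 dpa; the remaining 6 ended at means of 126 to 189.99 FPKM.

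As deposited, vanishing transcripts outnumbered appearing ones, 39 to 17, but with the limits set on values divided by size factors they numbered 27 and 26. Solyc07g054310.3, the strongest vanishing transcript, read 859, 1031 and 846 FPKM at 25 dpa and 0.99, 1.3 and 0 at 34 dpa. This fall was the steepest of all tested genes on the log2(FPKM + 1) scale (log2 change -9.10, SE 0.28, adjusted p = 6.02e-08). Solyc01g086920.3 had the second steepest on that scale, with 339, 338 and 326 FPKM against 0.11, 0.31 and 0.71 (log2 change -7.95, SE 0.15, adjusted p = 6.84e-09). Its 25 dpa replicates differed by little, and no breaker library reached 1 FPKM.

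The other 8 of the 10 strongest fell with log2 changes between -7.53 and -5.66. Solyc08g067030.3 read 559, 501 and 507 FPKM and then 1.76, 1.97 and 2.37 (log2 change -7.43, SE 0.10, adjusted p = 2.57e-09). Solyc03g020060.3 read 488, 517 and 482 FPKM and then 2.85, 2.55 and 2.58 (-7.08, SE 0.08, adjusted p = 1.27e-09). Both pairs of triplets were tight and far apart. Solyc02g065780.1 was more uneven, with 316, 486 and 544 FPKM at 25 dpa and 1.1, 2.6 and 1.76 at 34 dpa (-7.31, SE 0.25, adjusted p = 8.42e-08).

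Solyc02g082740.1 went from 374 ± 59.7 to 3.52 ± 1.25 FPKM (SD, n = 3). Solyc11g006250.2 went from 321 ± 31.0 to 0.847 ± 0.0874 FPKM and Solyc05g055400.4 from 271 ± 27.5 to 0.467 ± 0.0666 FPKM. Each of the latter stayed under 1 FPKM in every breaker library. Solyc08g068600.3 (241 ± 27.9 to 3.80 ± 0.684 FPKM) and Solyc04g005040.1 (231 ± 11.9 to 1.73 ± 0.575 FPKM) complete the 10 strongest. The remaining 29 began at means of 106 to 231 FPKM and ended at 0.133 to 4.29 FPKM.

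**Figure D3:**
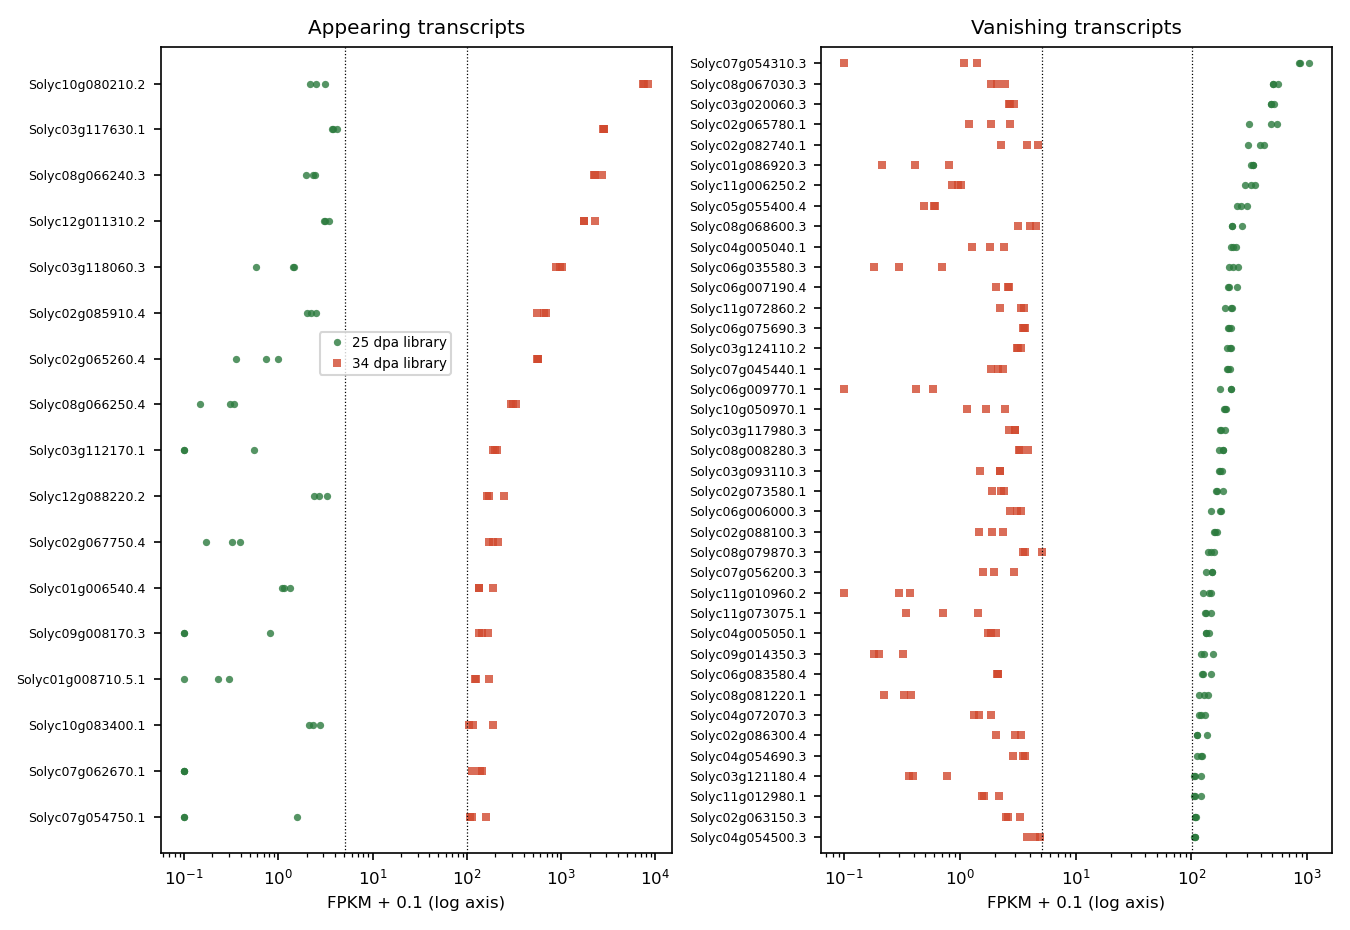
FPKM + 0.1 on a log axis in each of the 6 wild-type libraries for the 17 appearing transcripts (left) and the 39 vanishing transcripts (right), in the order of their mean at the higher age. Circles are 25 dpa libraries and squares 34 dpa libraries, dotted lines mark the limits of 5 and 100 FPKM, and no transcript has a library between them because the limits define the lists; the gap is widest for Solyc10g080210.2, at 2.53 and 7755 FPKM on average.

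Some genes with neighbouring identifiers changed in the same direction. Of 10963 pairs of adjacent identifiers with both genes tested, 91 pairs (0.83%) rose together, 600 (5.47%) fell together and 227 had 1 risen and 1 fallen gene. Of the tested neighbours of risen genes 14% had risen, beside 5.85% of all genes tested, and of those of fallen genes 26.9% had fallen, beside 20.9%. These conditional shares were computed after the pair counts were seen and were not tested. Neighbouring copies of a gene can share reads, and their part in the counts was not tested.

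The longest risen run held 7 genes, Solyc07g054750.1 to Solyc07g054810.1 on chromosome 7. Its last member, Solyc07g054810.1, read 49.7, 36.1 and 82.3 FPKM at 25 dpa and 2492, 2255 and 2171 at 34 dpa, a 41.2-fold rise without overlap (log2 change 5.42, SE 0.26, adjusted p = 5.05e-07). Its first, Solyc07g054750.1, is an appearing transcript (0.49 ± 0.849 to 126 ± 27.8 FPKM, SD, n = 3). The 5 between them rose as well: Solyc07g054790.1 by 33.8-fold, Solyc07g054770.1 by 10.1-fold, Solyc07g054760.1 by 4.55-fold and Solyc07g054780.1 by 3.79-fold, while Solyc07g054800.1 was listed at 0 in every 25 dpa library and read 23.0, 56.6 and 16.6 FPKM at 34 dpa. In 5 of the 7 genes replicate 2 had the highest breaker value.

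A shorter risen run on chromosome 8 held both appearing transcripts Solyc08g066240.3 and Solyc08g066250.4 and, next to them, Solyc08g066260.3. The last read 0.08, 0 and 0.17 FPKM at 25 dpa and 7.73, 10.8 and 7.03 at 34 dpa (log2 change 3.12, SE 0.16, adjusted p = 8.4e-07). Levels along this run thus stepped down from 2417 through 309 to 8.52 FPKM at the breaker stage.

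Fallen runs reached 5 genes, and there were 8 of that length, of which the 2 with the highest summed level are described. On chromosome 4, Solyc04g074410.2 to Solyc04g074450.1 fell together from a summed 2900.04 FPKM to 106 FPKM. Solyc04g074450.1 read 1053, 883 and 879 FPKM at 25 dpa and 28.8, 37.7 and 34.8 at 34 dpa (log2 change -4.76, SE 0.12, adjusted p = 2.34e-08). Log2 changes of the 5 members lay between -5.13 and -4.50. On chromosome 2, Solyc02g079500.4 to Solyc02g079540.2 fell from a summed 583 to 19.8 FPKM, of which Solyc02g079500.4 held most (527 ± 64.7 to 12.8 ± 1.78 FPKM, SD, n = 3). Solyc02g079520.3 was listed at 0 in every breaker library, after 4.05, 4.3 and 9.32 FPKM.

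**Figure D4:**
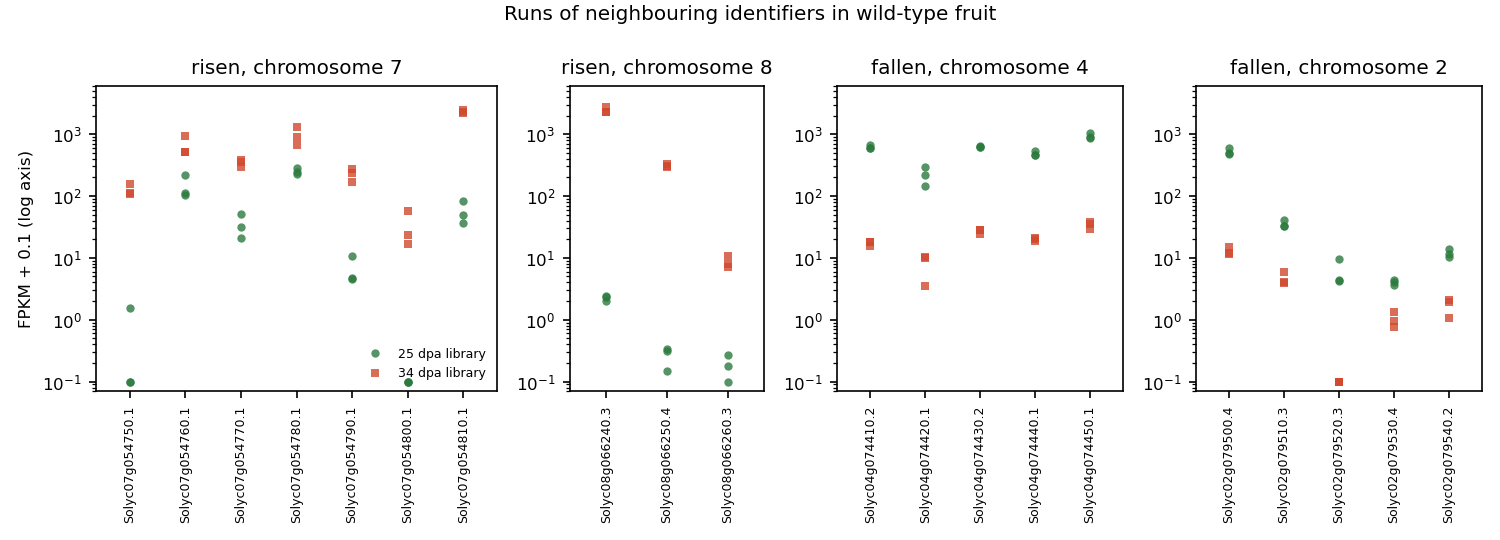
FPKM + 0.1 on a log axis for the genes of 4 runs of neighbouring identifiers in wild-type fruit, each point 1 library (circles 25 dpa, squares 34 dpa), with genes in the order of their identifiers. In the risen runs on chromosomes 7 and 8 squares lie above circles in every gene, and in the fallen runs on chromosomes 4 and 2 below them; the 5 genes on chromosome 4 fell by similar steps, and Solyc07g054810.1 ends the first run at 2306 FPKM.

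How the appearing and vanishing transcripts behaved in other genotypes was taken from a fit to all 27 libraries (18906 genes tested). In dml2-3 1 of 17 appearing transcripts was higher and 10 were lower at 34 than at 25 dpa (median log2 change -1.10), where 12.0% of all genes were higher and 21.8% lower. Without replicate 3 of dml2-3 at 25 dpa, a library that stands apart from its group, 1 was higher and 12 were lower (median -1.65). In the double mutant 11 were higher and 2 lower (median 0.64; 28.6% and 30.1% of all genes). Of the vanishing transcripts, 10 were higher and 6 lower in dml2-3 (median 0.02). Without the same library 16 were higher and 10 lower. In the double mutant 4 were higher and 31 lower (median -1.67).

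For all 17 appearing transcripts the stage change was lower than in wild type (a smaller rise or a fall) in both dml2-3 and rin/tdr4-1, by a test of the difference (limma interaction, adjusted p under 0.05; 17.0% and 14.5% of all genes went that way). For the vanishing transcripts it was higher than in wild type (a smaller fall or a rise) for all 39 in dml2-3 (52.1% of all genes) and for 37 in rin/tdr4-1 (55.9%). This fit used FPKM as deposited and was not repeated with size factors. The median gene moved by -0.081 in dml2-3 and -0.006 in rin/tdr4-1, beside -0.54 in the fit to WT, so these counts and shares depend on the scaling. The lists were chosen on the WT libraries that enter this difference, which favours a smaller change elsewhere. These counts therefore describe the lists and are no independent test of them. Many vanishing transcripts also read lower in the mutants at 25 dpa. The median of the means was 53.5 FPKM in dml2-3, replicate 3 included, and 99.5 FPKM in rin/tdr4-1, beside 182 FPKM in WT. The limit of 100 FPKM in every WT library of that age favours this order, which was not tested. Not called higher in stage change in rin/tdr4-1 were Solyc07g054310.3 and Solyc01g086920.3. Their stage changes differed from those in WT by 0.34 (SE 0.43, adjusted p = 0.488) and 1.499 (SE 0.74, adjusted p = 0.0776). Solyc01g086920.3 was called without replicate 3 of dml2-3 at 25 dpa (SE 0.20, adjusted p = 6.78e-07), which makes the count 38.

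Solyc07g054310.3 fell in the double mutant much as in wild type, from 694, 706 and 595 FPKM to 0.59, 0.32 and 0.73 (log2 change -8.76, SE 0.30, adjusted p = 2.09e-15). In dml2-3 it was low at both ages, at 17.2 ± 3.63 and 22.6 ± 2.37 FPKM (SD, n = 3). Solyc03g121180.4 went the other way from wild type: in the double mutant it rose from 176 ± 4.33 to 668 ± 15.6 FPKM (log2 change 1.92, SE 0.13, adjusted p = 1.54e-10), where wild type went from 111 ± 9.45 to 0.407 ± 0.229 FPKM. Solyc10g080210.2 rose in the double mutant only to 13.3, 13.9 and 12.3 FPKM, and in dml2-3 read 38.8, 35.3 and 1.99 FPKM at 25 dpa and 0.51, 0.39 and 0.38 at 34 dpa.

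For each mutant at 34 dpa it was counted how many of the 17 appearing transcripts reached 100 FPKM in every library. In tdr4-1 12 did, in nor-1 5 and in rin-1 3, beside 1 in rin/tdr4-1 and 0 in dml2-3; these counts were not tested. Solyc12g011310.2 was the 1 in the double mutant, at 125 ± 10.5 FPKM, and it stood at 1933 ± 325 FPKM in wild type, 2460 ± 674 in rin-1, 2751 ± 91.1 in tdr4-1 and 3137 ± 201 in nor-1 (SD, n = 3). The 3 in rin-1 were this gene, Solyc03g117630.1 (2249.8 ± 38.3 FPKM) and Solyc03g118060.3 (566 ± 19.1 FPKM). Of the vanishing transcripts, every library read under 5 FPKM for 16 of 39 in tdr4-1, 10 in nor-1, 8 in rin-1, 8 in rin/tdr4-1 and 0 in dml2-3. These counts were not tested either. Wild type at 34 dpa meets both limits because they define the lists. The share of all genes that meet them in each group was not computed, so the counts do not rank the mutants.

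**Figure D5:**
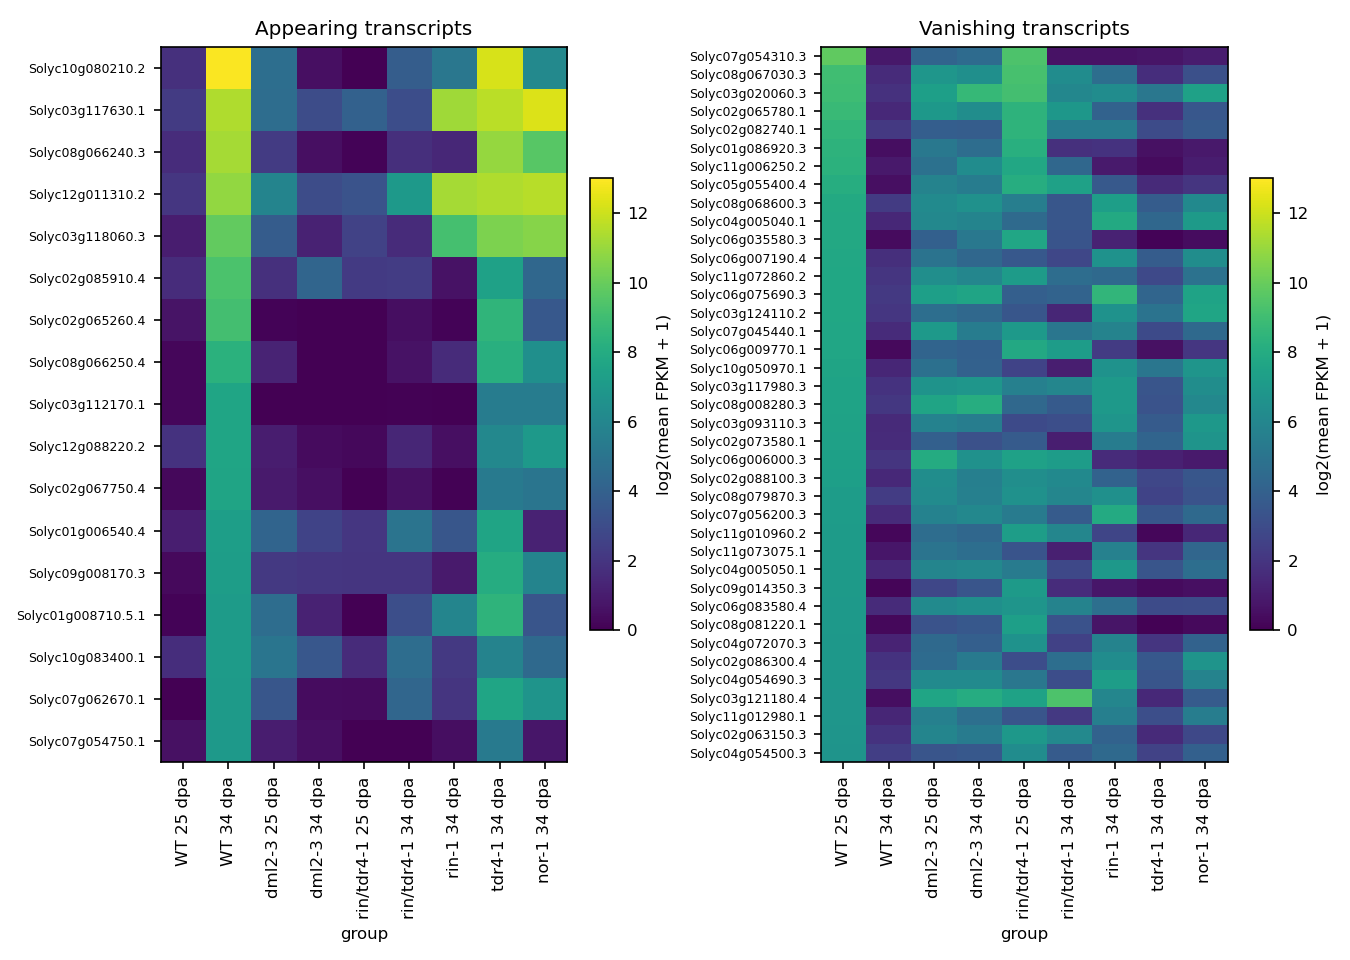
Mean level, as log2(mean FPKM + 1), of the 17 appearing (left) and 39 vanishing transcripts (right) in each of the 9 groups of 3 libraries; rows are transcripts, columns groups, and colour runs from 0 (dark) upwards. In the left panel the tdr4-1 column is closest in colour to wild type at 34 dpa. Medians of the means were 261 FPKM in tdr4-1 and 201 FPKM in wild type. In the right panel most vanishing transcripts have an intermediate colour in dml2-3 at both ages. There the medians of the means were 53.5 FPKM at 25 dpa and 43.3 FPKM at 34 dpa. Wild type stood at 182 FPKM at 25 dpa and 2.01 FPKM at 34 dpa. The dml2-3 means at 25 dpa include replicate 3, which stands apart from its group.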

How the data were processed

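Total RNA of fruits was sequenced, per the labels. The authors deposited 1 table of FPKM values, 1 column per library, without pooling. The submitters' processing notes name STAR 2.5.4b, Trimmomatic, DESeq2 and RSEM, with no role stated. The build, annotation and use of strand were not given in the sources used here. Every column matched 1 sample title. Of all library pairs 0 were identical. Ratios of low values between libraries were searched for single-read steps: the commonest, at 2 decimals, held at most 7.8% of low genes, so reads were not recovered and no count test was used.

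Here log2(FPKM + 1) was fitted with limma 3.58.1 in R 4.3.3 (1 mean per group, variance trend) over the 6 WT libraries, for genes reaching 1 FPKM in 3 or more of them. P-values were Benjamini-Hochberg adjusted and called under 0.05. Size factors were medians of ratios to the gene-wise geometric mean. Other genotypes were compared in a fit to all 27 libraries, for genes reaching 1 FPKM in 3 or more of these 27. Single values per library were tested by exact permutation with numpy 2.4.6. The fit was tested on simulated data. The members, lists and tests, the choice to fit WT libraries alone included, were made with earlier results of these data known.

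Genes named are the 10 strongest appearing and vanishing transcripts, the 10 most abundant at each age, the 2 largest rises and falls, and the 2 longest risen and fallen runs of identifiers, with ties settled by summed level, a choice made later. Others named mark the edge of a limit or stand in a count, and were chosen after their values were seen. Gene lists and tissue markers drawn up by symbol were not used, since 0 of 34075 identifiers matched the 41476 genes of the reference table. Alternatives were other scalings, pseudocounts, filters, library sets and limits, a replicate block and leaving out each library.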

Additional observations from a re-analysis of the deposited data

Results flagged for a closer look

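For transcripts chosen by their stage change in wild type, that change was compared between genotypes (limma interaction, fit to 27 libraries, FPKM as deposited only). The change from 25 to 34 dpa was lower than in wild type for all 17 appearing transcripts in dml2-3 and for all 17 in rin/tdr4-1, a direction called for 17.0% and 14.5% of all genes tested. It was higher than in wild type for all 39 vanishing transcripts in dml2-3 and for 37 in rin/tdr4-1 (38 without replicate 3 of dml2-3 at 25 dpa), a direction called for 52.1% and 55.9% of all genes tested. The lists were chosen on the wild-type libraries that enter the test, so these counts are not independent of the choice, which favours them. They describe the lists and do not test them. Vanishing transcripts also read lower in the mutants at 25 dpa. The median of their means was 53.5 FPKM in dml2-3 and 99.5 FPKM in rin/tdr4-1, beside 182 FPKM in wild type. The dml2-3 means include replicate 3, which stands apart from its group. The limits favour this order too.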

How the results depend on the processing

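Which direction prevailed depended on the scaling: genes called higher and lower numbered 6335 and 6542 with size factors and 7014 and 5543 with quantile scaling, against 2591 and 10547 as deposited. At a threshold of 4-fold 404 genes rose and 1444 fell. Limits of 50 and 5 FPKM gave 36 appearing and 112 vanishing transcripts, limits of 100 and 10 FPKM gave 33 and 84, and limits on values scaled by size factors gave 26 and 27, so that vanishing transcripts outnumbered appearing ones by far less. Pairs no more than 2 identifiers apart numbered 144 risen and 1120 fallen. Without replicate 3 of dml2-3 at 25 dpa 16 vanishing transcripts were higher and 10 lower in that mutant at 34 dpa, and 38 instead of 37 differed from wild type in rin/tdr4-1. The appearing transcripts lower in dml2-3 at 34 dpa then numbered 12 instead of 10. Leaving out 1 WT library at a time, with the set of genes tested held fixed (a choice made after a first run that filtered anew), gave 12229 to 13233 calls, 1001 to 1037 risen and 3570 to 3674 fallen genes, 17 to 21 appearing and 40 to 45 vanishing transcripts. The difference in the share of the 100 most abundant genes then lay between 16.5 and 18.3 percentage points, and that in genes at 1 FPKM or more between -2396 and -2297. With replicate number as a block, 12498 genes were called, 2355 higher and 10143 lower. Deviations of WT libraries with the same number correlated at -0.19, -0.27 and 0.17. Those with different numbers correlated at -0.28 to 0.39. Pairing by number was thus not seen, but 3 libraries per age cannot exclude it. For 54 named genes, 807 values under 15 settings kept direction and call in 792 cases, lost the call in 7, gained it in 5 and reversed in 3: Solyc04g071610.4 read -0.20 with quantile scaling and, leaving out 1 WT library at a time, -0.0067 (without replicate 1 of 25 dpa) to 0.475 (without replicate 2 of 34 dpa), and Solyc10g017980.1 read -0.15 with quantile scaling. The cause was not tested. Depth is unknown and limits transcripts listed at 0, and the spread rests on 3 libraries per age.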

Other observations

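The genes that joined the 10 most abundant in breaker fruit stood at different levels in the mutants at 34 dpa, given here as values chosen after they were seen and without a test. Solyc06g076520.1 read 15565 ± 2738 FPKM in wild type, 16393 ± 216 in rin-1, 19102 ± 1254 in tdr4-1 and 20689 ± 1948 in nor-1, but 1292 ± 48.8 in dml2-3 and 845 ± 40.8 in rin/tdr4-1 (SD, n = 3 for each). Solyc02g090120.1 read 14323 ± 1730 FPKM in wild type and 6667 ± 600 in tdr4-1, but 90.3 ± 12.8 in rin-1, 354 ± 20.3 in nor-1, 220 ± 12.3 in dml2-3 and 102 ± 10.2 in rin/tdr4-1.

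Risen and fallen genes were spread over all 12 chromosomes. The share of tested genes that rose lay between 4.15% on chromosome 11 and 6.73% on chromosome 7, and the share that fell between 17.4% on chromosome 11 and 22.4% on chromosome 2. Appearing transcripts were on 8 chromosomes and vanishing ones on 11, with none of the latter on chromosome 12.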
